A study of Mus musculus with 2 samples.

Results

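Alx1, Alx4, Pax3 and Pax7 are homeobox genes of the developing face, and they were taken here by name as 4 of 43346 mouse genes measured in the facial prominence of the mouse embryo. All 4 had a row in the gene tables, through the Ensembl identifiers that GENCODE pairs with their symbols. The tissue came from healthy B6NCrl embryos at embryonic day 12.5, with males and females mixed. There was 1 group of 2 total RNA-seq libraries, and no treatment or altered genotype is named. Replicate 1 was a pool of 120 embryos and replicate 2 a pool of 88. Total RNA was isolated with mirVana reagents, RNA of a size range above 200 was kept, 10 ng entered each library, and ERCC spike-in RNAs were added. Each pool averages over many embryos and over all regions of the dissected face, so no value belongs to 1 embryo or to 1 prominence.

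The face at this stage is built mostly by neural crest cells that surround the nasal pits and fill the maxillary and mandibular swellings. ALX proteins carry a paired-type homeodomain, and they are known from the crest mesenchyme around the nose and eye, where loss of ALX genes in people gives frontonasal dysplasia. PAX3 and PAX7 carry a paired domain as well as a homeodomain. They are known from the dorsal neural tube, from neural crest including nasal crest and melanocyte precursors, and from muscle progenitors.

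The shared homeobox shows how the 4 genes divide into pairs. A stretch of 39 coding bases is given for the leading transcript of each gene, 5′ to 3′ on the coding strand, with GRCm38 coordinates. It was chosen because it holds a codon in which the ALX pair and the PAX pair differ. Capitals mark codon 50 of the homeobox, counted from 1 at its start. This codon stands for a homeodomain residue known to help set which DNA site is bound. The stretch covers codons 42 to 54 and in each gene crosses an intron, so the coordinates span more than the letters shown.
Alx1-201, chr10:103022282-103025149, minus strand: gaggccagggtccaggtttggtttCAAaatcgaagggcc
Alx4-201, chr2:93668651-93675319, plus strand: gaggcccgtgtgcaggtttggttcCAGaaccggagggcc
Pax3-202, chr1:78122733-78132242, minus strand: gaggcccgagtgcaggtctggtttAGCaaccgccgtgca
Pax7-201, chr4:139780903-139784497, minus strand: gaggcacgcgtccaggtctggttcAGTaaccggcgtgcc
In the standard genetic code CAA and CAG both stand for glutamine, and AGC and AGT both stand for serine. Over the 180 bases of the homeobox, Alx1 and Alx4 shared 138 bases (76.7%) and Pax3 and Pax7 shared 145 (80.6%). The ALX and PAX genes shared fewer, from 113 (62.8%) between Alx1 and Pax7 to 131 (72.8%) between Alx4 and Pax7.

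The 4 genes differed widely in abundance. Alx1 was the most abundant, Pax3 and Alx4 lay close together below it, and Pax7 was scarce. Levels are in TPM, which counts reads per effective length of the gene and scales every library to the same total. Each level carries an exact Poisson interval at 95% that covers counting error only, since reads are not independent molecules. The libraries held 27890681 expected counts in replicate 1 and 39969716 in replicate 2, and spike-ins took 6.88% and 7.57% of the TPM. Of 21474 protein-coding genes 13275 (61.8%) had 1 TPM or more in each library, and the median gene stood at 5.24 TPM. Of 10 crest mesenchyme genes all 10 reached 1 TPM in both libraries, led by Col1a2 at 507.61 and 560.10 TPM and Col1a1 at 424.37 and 514.00 TPM.

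Alx1 (ENSMUSG00000036602.9), a factor of the frontonasal and periocular mesenchyme, lies on the minus strand of chr10:102998707-103030215. It stood at 91.94 TPM in replicate 1 (interval 89.1 to 94.9, from 3871 counts) and 134.20 TPM in replicate 2 (131 to 137, from 8004 counts). The mean was 113.07 ± 29.9 (SD, n = 2), and the 2 counting intervals did not overlap. Alx1 ranked 1415 among the 21474 protein-coding genes by mean level, 21.6-fold over their median.

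Pax3 (ENSMUSG00000004872.11), a factor of the dorsal neural tube, the neural crest and the earliest muscle progenitors, lies on the minus strand of chr1:78101267-78197134. It stood at 23.52 TPM (22.3 to 24.7, from 1487 counts) and 30.91 TPM (29.8 to 32.1, from 2789 counts), with a mean of 27.2 ± 5.23 (SD, n = 2). Replicate 2 was again the higher, with intervals that did not overlap. Pax3 lay above 73.6% of protein-coding genes.

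Alx4 (ENSMUSG00000040310.8), which acts with other ALX genes in the nasal region, the skull vault and the limb, lies on the plus strand of chr2:93642384-93681339. It stood at 20.11 TPM (19.2 to 21.1, from 1828 counts) and 22.97 TPM (22.2 to 23.8, from 2966 counts), with a mean of 21.54 ± 2.02 (SD, n = 2). Its libraries lay nearer each other than those of Alx1 or Pax3, with replicate 2 still the higher. Alx4 lay above 69.3% of protein-coding genes.

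Pax7 (ENSMUSG00000028736.9), known from the dorsal neural tube, the nasal crest and the muscle progenitors that later become satellite cells, lies on the minus strand of chr4:139737062-139833528. It stood at 1.16 TPM (0.959 to 1.39, from 117 counts) and 1.11 TPM (0.944 to 1.30, from 158 counts), with a mean of 1.14 ± 0.0354 (SD, n = 2). The intervals overlapped over most of their width. Pax7 was 0.217-fold of the protein-coding median and lay above 37.9% of those genes. Yet both libraries were above the limit that a count of 0 allows, 0.172 and 0.121 TPM for an effective length of 1000 bases. The effective length of Pax7 was 5755 bases, for which that limit is lower.

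**Figure D1:**
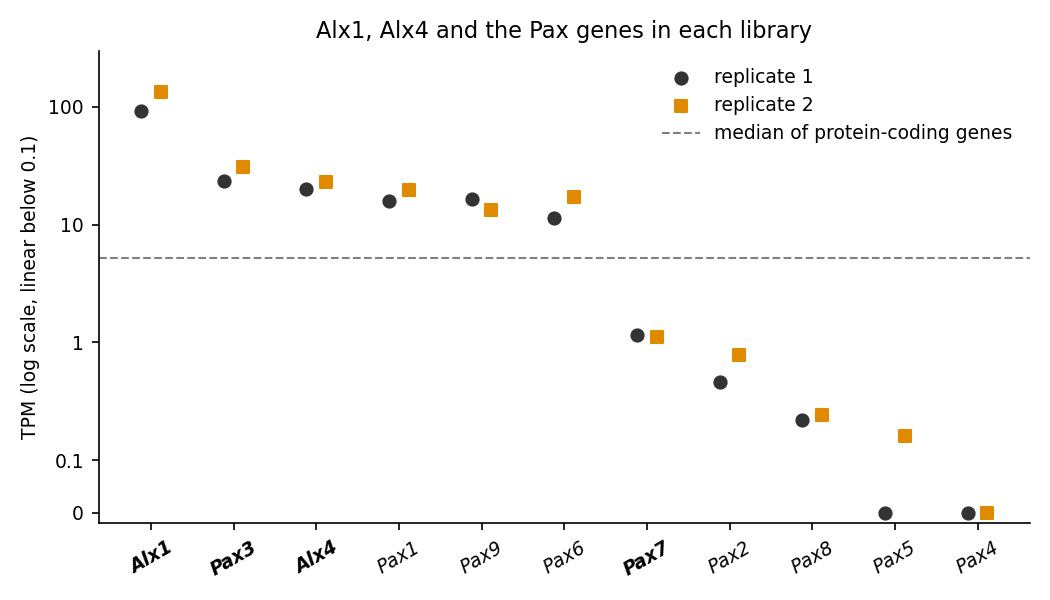
Level of Alx1, Alx4 and the measured Pax genes in each library, in TPM on a logarithmic axis that is linear below 0.1, with 1 point per library and a line for the protein-coding median of 5.24 TPM. Alx1 is the highest at 91.94 and 134.20 TPM. Pax7 sits below the median near 1 TPM, under Pax1, Pax9 and Pax6 and above Pax2, Pax8, Pax5 and Pax4.

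Within each library the levels were set against each other as log2 ratios. Alx1 exceeded Alx4 by 2.19 and 2.55 on the log2 scale in replicates 1 and 2, a mean of 2.37 ± 0.25 (SD, n = 2) or 5.17-fold. Pax3 exceeded Pax7 by 4.34 and 4.80, a mean of 4.57 ± 0.32 or 23.8-fold. Both pairs that share most homeobox sequence were thus far apart in level, in the same order in each library.

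Alx1 exceeded Pax3 by 2.04 ± 0.11 on the log2 scale, or 4.12-fold, with the smallest SD of the 6 ratios. Alx4 over Pax3 was -0.23 and -0.43, a mean of -0.33 ± 0.14. Alx4 and Pax3 were the only neighbours in the order whose distance was small, since Pax3 in replicate 1 (23.52 TPM) nearly met Alx4 in replicate 2 (22.97 TPM). In counts not divided by length the order of this pair turned, with a log2 ratio of 0.19. With 2 libraries no test of these ratios was made. Of the summed TPM of the 4 genes, Alx1 took 67.2% and 70.9%, Pax3 17.2% and 16.3%, Alx4 14.7% and 12.1%, and Pax7 0.848% and 0.587%.

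The levels of Alx1, Pax3 and Alx4 differed between the libraries by more than counting error, and that of Pax7 did not. The comparison is of 1 library with 1 other of the same group, so no p-value was computed. Each pool gave 1 library, so the pool and the handling of its library cannot be told apart. Differences are given as log2(TPM + 1) in replicate 2 minus replicate 1, which understates the change of scarce genes. In bulk tissue, fewer cells of a type and less RNA per cell cannot be told apart.

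Alx1 was higher in replicate 2 by 0.54 on this scale, a TPM ratio of 1.46 (exact binomial interval at 95%, 1.40 to 1.52). Of 13490 protein-coding genes with a mean of 1 TPM or more, 111 had a larger difference in this direction. Among the 2483 genes within 2-fold of the level of Alx1 the SD of the difference was 0.11. Alx1 therefore differed between the libraries by several times the spread of genes as abundant as itself.

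Pax3 was higher in replicate 2 by 0.38, a TPM ratio of 1.31 (1.23 to 1.40), and 293 of the 13490 genes had a larger difference. The SD among 4936 genes of like level was 0.14. Alx4 was higher by 0.18, a TPM ratio of 1.14 (1.08 to 1.21), against an SD of 0.16 among 4911 genes of like level. The difference of Alx4 exceeded counting error but was about as large as the spread of its peers.

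Pax7 differed by -0.03, a TPM ratio of 0.957 (0.749 to 1.23), which does not show that its level was equal in the pools. A difference as large as that of Alx4 lies inside this interval, while the ratios of Alx1 and Pax3 lie outside it. The 1248 genes of like level had an SD of 0.29.

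To read these against all 13490 genes, a ratio of over 5 to 4 between the libraries, 0.32 on the log2 scale, was counted. In replicate 2, 438 genes (3.25%) were higher by over 0.32, and Alx1 and Pax3 were 2 of them. In replicate 1, 526 genes (3.90%) were higher by over 0.32, none of the 4 among them. At 1.5-fold the shares were 0.660% and 0.786%, and at 2-fold 0.170% and 0.0815%, and none of the 4 genes passed either fold. With counts scaled to the spike-ins the median of all genes moved from 0.0039 to -0.13. On that scale Alx1 was at 0.41, Alx4 at 0.059, Pax3 at 0.27, now under 0.32, and Pax7 at -0.21. Relative to that median they were at 0.54, 0.19, 0.40 and -0.08.

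**Figure D2:**
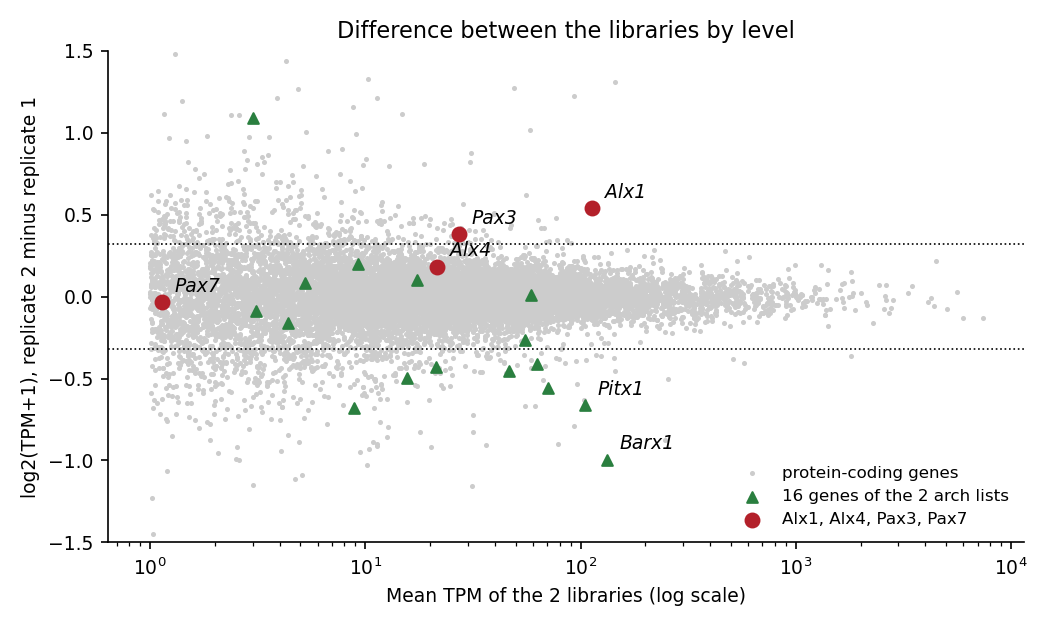
Difference between the libraries against mean TPM for 13490 protein-coding genes (grey, logarithmic horizontal axis), with Alx1, Alx4, Pax3 and Pax7 in red, the 16 genes of the maxillary and mandibular lists as green triangles, and dotted lines at 0.32 and its negative. Alx1 at 0.54 and Pax3 at 0.38 lie above the upper line, Barx1 and Pitx1 lie below the lower one, and 8 grey genes fall outside the axis limit of 1.5.

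The coding choices of each gene were read from the transcript tables, where 3 transcripts of Alx1, 2 of Alx4, 3 of Pax3 and 2 of Pax7 were quantified. GENCODE M21, from which names and exons were taken, lists 8, 2, 3 and 2. Shares are the deposited percentage of the TPM of the gene on each transcript, and depend on how reads in shared exons were divided.

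Nearly all Alx1 RNA was placed on coding transcripts. Alx1-201, with 4 exons and 978 coding bases, held 91.82% and 91.77% of its TPM (84.42 and 123.16 TPM). Alx1-203, with an extra 5′ exon and the same 978 coding bases, held 8.18% and 7.90%. Alx1-202, a processed transcript with no annotated coding sequence and 42 of the 180 homeobox bases, was listed at 0 and 0.33%. Alx1-201 was higher in replicate 2, with deposited bounds, at a level not given, of 77.2 to 85.2 and 116 to 124 TPM. Alx1-203 stood at 7.52 and 10.60 TPM, with bounds that overlapped, 4.93 to 10.6 and 7.63 to 13.8 TPM. A higher level of Alx1-203 in replicate 2 was thus not shown.

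Alx4 had a leading transcript at 97.22% and 96.83%, Alx4-201 with 1197 coding bases (19.55 and 22.24 TPM). Alx4-202, at 2.78% and 3.17% (67.95 and 125.40 counts), runs on into intron 3 and has 975 coding bases. Both hold the full homeobox and part after it. The bases around the point of parting are shown, plus strand with GRCm38 coordinates, because they are what tells the transcripts apart. Capitals mark the bases after that point.
Alx4-201, chr2:93675395-93677261: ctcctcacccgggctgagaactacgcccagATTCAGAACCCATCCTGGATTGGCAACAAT
Alx4-202, chr2:93675395-93675454: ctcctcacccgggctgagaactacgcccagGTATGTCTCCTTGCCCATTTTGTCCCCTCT
The first sequence crosses the intron and the second reads straight into it. Reads from unspliced Alx4 RNA would also fall on the intronic bases, and their part in the share of Alx4-202 was not tested.

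Pax3 was the gene whose transcripts were most divided. Pax3-202, with 8 exons and 1437 coding bases, held 78.40% and 81.42% of its TPM, a mean of 79.9 ± 2.14 (SD, n = 2). Pax3-201, with 9 exons and 1452 coding bases, held 8.99% and 6.73%. These transcripts share the paired domain and homeobox and part only at the very end of the coding sequence. The parting is shown, minus strand with GRCm38 coordinates, with capitals for bases after it. After the parting Pax3-202 has 17 coding bases and Pax3-201 has 32.
Pax3-202, chr1:78103311-78103357: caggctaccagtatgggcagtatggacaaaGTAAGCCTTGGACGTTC
Pax3-201, chr1:78102819-78103357: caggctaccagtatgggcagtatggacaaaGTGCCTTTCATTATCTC
Among coding Pax3 transcripts, Pax3-202 made up 89.7% and 92.4% of the TPM and Pax3-201 10.3% and 7.64%. Pax3-202 was higher in replicate 2 (18.44 and 25.16 TPM). Pax3-201 stood at 2.12 and 2.08 TPM, with deposited bounds of 1.08 to 3.09 and 1.37 to 2.89 TPM. With bounds so wide, a course unlike that of Pax3-202 was not shown.

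Pax3-203 held 12.61% and 11.85% of the Pax3 TPM, or 2.97 and 3.66 TPM from 164.32 and 288.02 counts. It has 5 exons, ends in intron 4 and is annotated as a processed transcript, with 0 of the 180 homeobox bases. As with Alx4-202, reads from unspliced RNA would fall on its intronic end, and their part was not tested.

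For Pax7, all reads were placed on Pax7-201, with 1509 coding bases, at 100% in both libraries from 117 and 158 counts, or a mean of 93.3% in the posterior mean TPM. Pax7-202 was listed at 0, and the upper bounds deposited for it, at a level not given, were 0.273 and 0.185 TPM. Its coding sequence has 6 more bases at the start of exon 4, shown in capitals, minus strand with GRCm38 coordinates.
Pax7-201, chr4:139828675-139829526: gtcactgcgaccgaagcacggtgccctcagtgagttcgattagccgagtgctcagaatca
Pax7-202, the same region: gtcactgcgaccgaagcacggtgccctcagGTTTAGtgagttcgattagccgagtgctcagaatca
The 2 models also differ at their ends, with 5854 bases in Pax7-201 and 1725 in Pax7-202, so reads were not placed by these 6 bases alone. Use of the 6 bases was therefore not measured, and the whole gene had few counts.

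**Figure D3:**
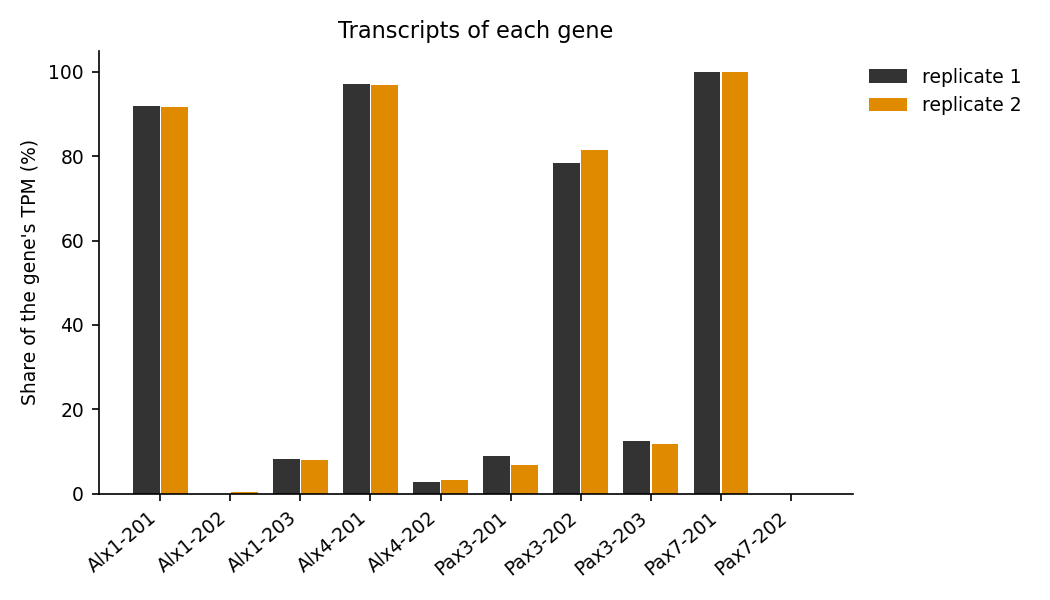
Share of each gene's TPM on each quantified transcript, in percent, with 1 bar per library. Pax3 is the most divided, with Pax3-202 at 78.40% and 81.42%, while Pax7-201 stands at 100% in both libraries.

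**Figure D4:**
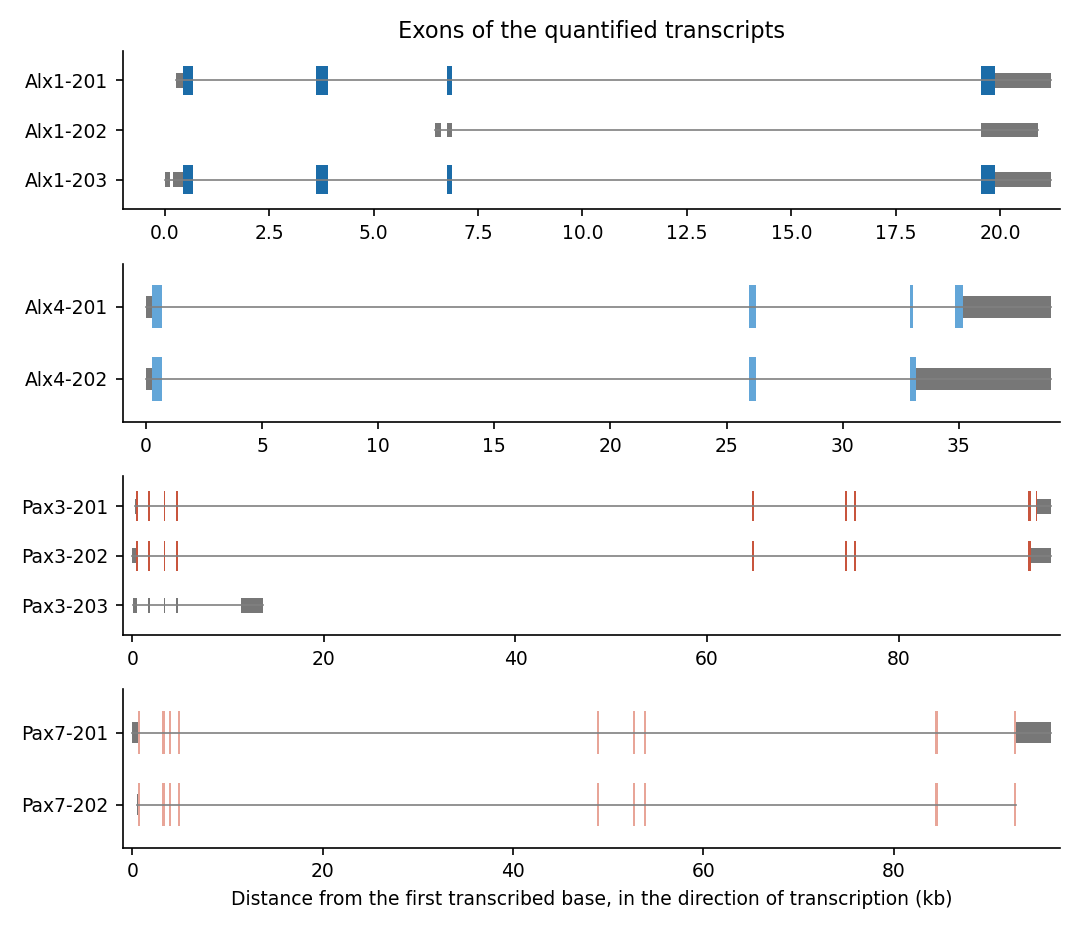
Exon models of the quantified transcripts of Alx1, Alx4, Pax3 and Pax7 along their 5′ to 3′ direction, with the distance in kilobases from the gene start, and coding parts drawn taller. The extra 5′ exon of Alx1-203, the late parting of Pax3-201 and Pax3-202 and the early end of Pax3-203 can be followed.

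Alx4 shares its locus with another gene. Ext2, a heparan sulfate polymerase subunit, runs on the opposite strand at chr2:93661028-93822568 and stood at 87.02 and 92.80 TPM, a mean of 89.9 ± 4.09 (SD, n = 2). No exonic base was shared, but 6355 of the 7060 exonic bases of Alx4 (90.0%) lie inside introns of Ext2. Whether the libraries kept strand is not given in the sources used here, so reads of unspliced Ext2 RNA could be counted as Alx4, and their part was not tested. Ext2 differed between the libraries by 0.09, against 0.18 for Alx4. The gene start of Alx1 overlaps the lincRNA Gm17028 on the same strand, which stood at 1.89 and 3.80 TPM from 20 and 57 counts and shared no exonic base with the quantified Alx1 transcripts.

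Alx1, Alx4 and Pax7 were each more abundant than the nearest protein-coding genes on either side that do not overlap them, and Pax3 lay between its neighbours. Beside Alx1, Lrriq1 stood at 0.67 and 0.72 TPM and Rassf9 at 1.59 and 1.52 TPM. Beside Pax3, Epha4, an ephrin receptor 586178 bases away, stood at 49.39 and 52.14 TPM, and Sgpp2 at 2.36 and 3.43 TPM. Beside Alx4, Gm10803 was listed at 0 in both libraries and Accs stood at 7.92 and 8.01 TPM. Beside Pax7, Tas1r2 was listed at 0 in both libraries and Klhdc7a at 0.06 and 0.15 TPM.

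Among the other PAX genes, Pax1, Pax9 and Pax6 stood nearest in level to Alx4 and Pax3, though below both in each library. Pax1, known from the pharyngeal pouches and sclerotome, stood at 16.00 and 19.88 TPM, and Pax9, which is needed for teeth and palate, at 16.50 and 13.38 TPM. Pax6, the factor of eye and olfactory placode, stood at 11.32 and 17.11 TPM and was higher in replicate 2 by 0.56, past the limit of 0.32 that Alx1 and Pax3 passed. Pax2 (0.46 and 0.78 TPM) and Pax8 (0.22 and 0.24 TPM) lay under Pax7, Pax5 was listed at 0 and 0.16 TPM, and Pax4 was listed at 0 in both. Pax7 was thus the scarcest of the 7 genes, of 11 ALX and PAX genes measured here, that reached 1 TPM in both libraries. Of the 7 genes with a mean of 1 TPM or more, 3 were past 0.32 in replicate 2 and 0 in replicate 1, with a median difference of 0.30 against 0.0039 over the 13490 genes. All counts past 0.32 given for lists below are likewise over members with a mean of 1 TPM or more. The shares to set beside them, over the 13490 genes, are 3.25% in replicate 2 and 3.90% in replicate 1. Scarce genes passed more often in replicate 2, 10.5% of the 1248 genes of like level to Pax7 against 0.524% near Alx1. Counts at 1 TPM in both libraries are to be set beside 61.8% of protein-coding genes.

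Of 23 measured homeobox genes related to the paired type, 13 reached 1 TPM in both libraries, with a median of 4.45 TPM. Prrx1, a marker of limb and facial mesenchyme, stood at 154 and 148 TPM, Pitx1 at 129.42 and 81.42 TPM and Prrx2 at 88.19 and 100.20 TPM. Vsx1, a factor of the retina, was listed at 0 in both libraries. Alx1 was thus of the order of these mesenchymal relatives, and of the 16 relatives with a mean of 1 TPM or more 4 were past 0.32 in replicate 2 and 3 in replicate 1.

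Alx1 stood below Barx1 and Pitx1, the most abundant genes of the arch lists, in replicate 1 and above both in replicate 2. Barx1, which marks the maxillary and mandibular mesenchyme, stood at 177.40 and 88.55 TPM, so Alx1 over Barx1 was -0.95 on the log2 scale in replicate 1 and 0.60 in replicate 2. Alx1 over Pitx1 was -0.49 and 0.72. Alx1 over Dlx5, which specifies the mandibular part of the arch, was 0.12 and 1.23, and over Msx1, a broad facial mesenchyme factor at 336 and 325 TPM, -1.87 and -1.28. The order turned between the pools for Barx1 and Pitx1 and held for Dlx5 and Msx1.

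The 16 genes of the arch lists had a median difference of -0.34, against 0.0039 over the 13490 genes. Of 8 maxillary and proximal arch genes 5 were higher by over 0.32 in replicate 1 and 0 in replicate 2. Over the 13490 genes these shares were 3.90% and 3.25%. The maxillary list had a median difference of -0.42 and a summed level of 550 and 374 TPM. Dlx1 stood at 72.09 and 53.87 TPM, and Pou3f3, the scarcest, at 8.57 and 9.97 TPM. Of 8 mandibular and distal arch genes 3 were higher in replicate 1 by that much and 1 in replicate 2, with a median difference of -0.12 and sums of 180 and 138 TPM. Gsc stood at 53.66 and 38.90 TPM and Dlx3 at 16.71 and 18.02 TPM, while Hand1, at the distal tip of the jaw, was higher in replicate 2 (1.56 and 4.44 TPM). Alx1 and Pax3 were on the other side from the median of these genes, and the part of the dissection in that was not tested.

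The frontonasal genes were mixed in direction. Of 18 such genes 17 averaged at least 1 TPM, and 2 of these were higher by over 0.32 in replicate 2 and 2 in replicate 1. The median difference of all 18 was -0.04 and their sums were 729 and 734 TPM. The 2 on the side of Alx1 and Pax3 were Tfap2b (22.67 and 34.03 TPM) and Aldh1a3, an enzyme of retinoic acid synthesis (32.75 and 46.88 TPM). The 2 on the other side were scarcer, Fgf8 (5.05 and 2.86 TPM) and Fgf17 (2.67 and 1.14 TPM). Aldh1a3, Fgf8 and Fgf17 were named after their values were seen. Msx1 and Efnb1, the ephrin of craniofrontonasal syndrome (60.96 and 58.57 TPM), were among its most abundant genes, and Tfap2e was at 0.29 TPM in replicate 1 and listed at 0 in replicate 2.

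**Figure D5:**
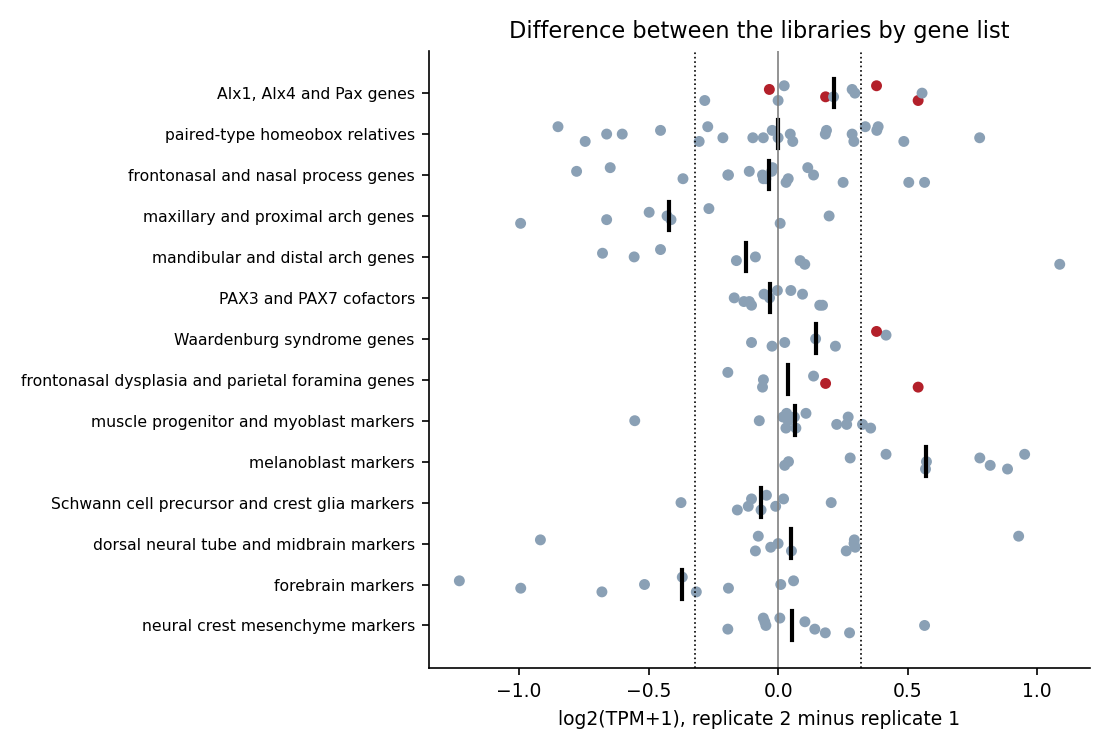
Difference between the libraries, log2(TPM + 1) in replicate 2 minus replicate 1, for every gene of each list (points) with the list median. The melanoblast list lies to the side of replicate 2 with a median of 0.57, the maxillary list to the side of replicate 1 at -0.42, and the PAX cofactors near -0.03.

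PAX3 also marks cells other than facial mesenchyme, and their markers were read beside it. The 10 melanoblast genes, which include targets of PAX3 in pigment cells, had 7 members at 1 TPM in both libraries, but 4 at 2 TPM. Of 8 with a mean of 1 TPM or more, 6 were higher by over 0.32 in replicate 2 and 0 in replicate 1. Over the 13490 genes these shares were 3.25% and 3.90%. Among the 1248 genes of like level to Pax7, near which the scarcest of the 8 lay, 10.5% were past 0.32 in replicate 2. None of the 10 was listed at 0 in both libraries. Their summed level was 67.8 and 98.9 TPM. Their median difference, over all 10, was 0.57, against 0.0039 over the 13490 genes. Pmel, a melanosome protein, stood at 21.81 and 39.24 TPM, Ednrb at 25.31 and 25.78 TPM, Kit at 10.28 and 12.68 TPM and Gpr143 at 0.42 and 0.46 TPM. The melanoblast markers thus lay on the same side as Pax3, and their part in the Pax3 difference was not tested.

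The 14 muscle genes had a median difference of 0.07, against 0.0039 over the 13490 genes, whose upper quartile was 0.09. Of the 14 genes 12 reached 1 TPM in both libraries, 1 was past 0.32 in replicate 2 and 1 in replicate 1. The sums were 788 and 815 TPM, most of it Itm2a at 593 and 607 TPM. Myog, the factor of differentiating muscle, stood at 52.11 and 62.81 TPM, and Myf6 at 0.55 and 0.67 TPM. Muscle transcripts were therefore present in both pools beside a Pax7 level near 1 TPM, and their part in the Pax3 difference was not tested.

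Glial and neural lists gave other patterns. Of 9 glial markers 0 were past 0.32 in replicate 2 and 1 in replicate 1, with sums of 249 and 206 TPM, led by Fabp7 (162.14 and 124.80 TPM), Ngfr (30.44 and 27.19 TPM) and Erbb3 (17.34 and 17.22 TPM), with S100b the lowest at 1.03 and 1.34 TPM. Of 11 dorsal neural tube and midbrain markers 8 reached 1 TPM in both libraries, but 3 reached 2 TPM, with sums of 21.03 and 21.89 TPM. Zic4 (4.94 and 4.59 TPM) and Zic2 (3.11 and 4.04 TPM) led them, and En2 was at 0.02 TPM in replicate 1 and listed at 0 in replicate 2. Of 9 forebrain markers 4 reached 1 TPM in both libraries, and 2 reached 2 TPM. Of 6 with a mean of 1 TPM or more, 4 were past 0.32 in replicate 1 and 0 in replicate 2. Over the 13490 genes these shares were 3.90% and 3.25%. The whole forebrain list had sums of 33.0 and 24.1 TPM. Emx2 stood at 19.65 and 17.08 TPM, Nkx2-1 at 3.66 and 1.34 TPM and Eomes at 0.53 and 0.07 TPM. Pax3 lay on the other side from the forebrain list, and the part of neural tissue in either gene was not tested.

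All 11 genes for partners that PAX3 and PAX7 are known to use reached 1 TPM in both libraries, against 61.8% of protein-coding genes. None of the 11 passed 0.32 in either direction, as against 3.25% and 3.90% of all genes, which in so short a list is no result about the cofactors. Trim28, a corepressor scaffold, stood at 413.78 and 398.45 TPM, Tead2 at 245.63 and 227.33 TPM and Ash2l, a subunit of histone H3 methyltransferase complexes, at 109.72 and 122.77 TPM. Wwtr1, the scarcest, stood at 12 and 13.64 TPM, above Pax7 and below Pax3.

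Among 131 genes of the lists, the likeness to each of the 4 genes was measured as the Euclidean distance of log2(TPM + 1) over the 2 libraries. Nearest to Alx1 were Ash2l (0.283), Prrx2 (0.422) and Pdgfra (0.527), rank for rank at greater distances than for the other 3 genes. Nearest to Alx4 were Myod1 (0.167), Tle4 (0.256) and Ednrb (0.356). Nearest to Pax3 were Tfap2b (0.144), at 22.67 and 34.03 TPM and also higher in replicate 2, Msx2 (0.172) and Ednrb (0.273). Nearest to Pax7 were Zswim6 (0.0265), Dmbx1 (0.0601) and En1 (0.115). With 2 libraries this likeness is one of level more than of pattern.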

How the data were processed

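Gene and transcript tables were deposited for each library, made on mm10 and GENCODE M4 per the notes beside them. The name of the aligner or of the quantifier is not given in the sources used here. Per the file headers, the values are an expected count, a TPM, a posterior mean TPM and an FPKM, and the deposited TPM includes the spike-ins in its total. The share of a gene on each transcript is a percent column that the authors deposited. The deposited bounds around the posterior mean TPM were treated as a score, since their level is not given.

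Symbols, exons and coordinates came from GENCODE M21 on the same build (GRCm38). Bases shown were read from the GENCODE M21 transcript sequences, and their GRCm38 coordinates came from its exons. Promoter motifs were not analysed here, and some genes that the naming rule below would give are not reported here. Means ± SD are over 2 libraries; the labels give each its own pool of embryos and name no batch. Counting intervals were exact at 95%. Differences used a pseudocount of 1 TPM, a minimum mean of 1 TPM and limits of 0.32 on the log2 scale, 1.5-fold and 2-fold. Counts were rounded to whole numbers for edgeR 4.0.16 (R 4.3.3). Its common dispersion over 17332 genes was 0.00393, a coefficient of variation of 6.27%. On simulated counts of 43442 features the estimate was within 2.51% of the 3 dispersions simulated. Those were each above 0.00393 and the same for every gene, so the check does not reach the value found here. Other steps used Python 3.11.15.

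The text names all ALX and PAX genes kept, the 3 most abundant and the scarcest gene of each other list, the 3 nearest genes, and overlapping and neighbouring genes. The 4 genes and the 14 lists were chosen with earlier results of these data known, so lists are described by counts and medians without tests. Alternatives covered the posterior mean TPM, spike-in handling, counts without division by length, another pseudocount and minimum, TMM and RLE scaling and each library alone.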

Additional observations from a re-analysis of the deposited data

How the results depend on the processing

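Of the alternative values for the main results that use both libraries, 37 were unchanged by the limits set, 14 moved and 1 changed sign. The limit was 1 SD for levels and ratios, the counting interval of the ratio for library differences, which is wide for Pax7, and 1.5 times for counts. Pax7, at 1.14 TPM, was at 1.18 TPM as a posterior mean and 1.22 TPM without spike-ins in the total. In counts not divided by length, the log2 ratio of Alx4 over Pax3 changed sign to 0.19, and those of Alx1 over Alx4, Alx1 over Pax3, Alx1 over Pax7 and Pax3 over Pax7 were 1.26, 1.45, 5.36 and 3.90. Such counts grow with gene length. A pseudocount of 1 TPM, which pulls the scarce Pax7 up, gave 5.71 for Alx1 over Pax7, 3.40 for Alx4 over Pax7 and 3.71 for Pax3 over Pax7. Spike-in scaling put the library differences of Alx1, Alx4 and Pax3 at 0.41, 0.059 and 0.27. At a minimum mean of 10 TPM, 99 genes were higher by over 0.32 in replicate 2 and 161 in replicate 1, among fewer genes tested. Each library alone gave the same order of the 4 genes, and with 2 libraries its distance from the mean is always under 1 SD. No paired analysis was possible because there is 1 group. Depth limits Pax7 most, with 117 and 158 counts.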

Other observations

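Pax3 belongs to a list of 7 genes known from Waardenburg syndrome, a disorder of pigment and hearing. All 7 reached 1 TPM in both libraries, as did 61.8% of protein-coding genes. Snai2 led at 58.60 and 68.48 TPM, Pax3 and Ednrb followed, and Mitf, the master regulator of pigment cells, was the scarcest at 1.15 and 1.87 TPM. The median difference of the list was 0.14, with 2 genes, Pax3 and Mitf, higher by over 0.32 in replicate 2 and 0 in replicate 1. Over the 13490 genes these shares were 3.25% and 3.90%. Among the 1248 genes of like level to Pax7, a level near that of Mitf, 10.5% were past 0.32 in replicate 2.

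Alx1 and Alx4 belong to a list of 6 measured genes known from frontonasal dysplasia or parietal foramina, with a median of 28.1 TPM. All 6 reached 1 TPM in both libraries, as did 61.8% of protein-coding genes. Alx1 was the most abundant, followed by Efnb1 and Six2 (31.48 and 27.39 TPM), and Zswim6 was the scarcest at 1.20 and 1.11 TPM. The median difference was 0.04, and Alx1 was the 1 gene past 0.32. Pax3 and Six2 changed places between the pools, with Pax3 over Six2 at -0.42 and 0.17 on the log2 scale.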
